A study of Mus musculus with 12 samples.

Results

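The 10 genes described here encode receptor chains for interleukin 6 (IL-6), IL-12, IL-23, IL-27, IL-10, IL-17C and interferon-gamma: Il6ra, Il6st, Il27ra, Il12rb1, Il12rb2, Il23r, Il10ra, Il17re, Ifngr1 and Ifngr2. They were taken by name from the 55450 genes of the deposited table, and all 10 passed the filter on low counts that left 15361 genes for testing. RNA was sequenced from 3 CD4+ populations of mouse thymus, with 4 libraries each. All mice carried CD4-Cre, which is driven by the CD4 promoter, and a Foxp3-GFP reporter, by which cells expressing Foxp3 can be sorted. Eos+ Tregs (regulatory T cells) were CD4+Foxp3+Ccr6+Cxcr4+ cells, Eos- Tregs were CD4+Foxp3+Ccr6-Cxcr4- cells, and Tconv were CD4+Foxp3- cells. Ikzf4 encodes the transcription factor Eos, so the Treg gates rested on 2 surface receptors and not on Eos itself. No treatment was named in the labels, and the age of the mice was not given there. Separate animals are not named in the labels as the source of replicates, so every p-value below reflects spread among libraries, part of which can be technical.

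Each of these receptors is built from chains that come together when the cytokine binds. IL-6 binds the alpha chain encoded by Il6ra and then gp130, encoded by Il6st, and IL-27 uses gp130 together with the chain encoded by Il27ra. IL-12 and IL-23 share the chain encoded by Il12rb1, which pairs with the product of Il12rb2 for IL-12 and with that of Il23r for IL-23. Interferon-gamma binds the chain encoded by Ifngr1, while the product of Ifngr2 completes the complex, and IL-10 binds the chain of Il10ra, which works with that of Il10rb. These chains signal through Janus kinases and STAT factors, among them STAT4 for IL-12 and STAT3 for IL-6, IL-10 and IL-23. The product of Il17re stands outside this scheme: it pairs with that of Il17ra to bind IL-17C. In CD4+ T cells, IL-12 and interferon-gamma are known for their part in the Th1 program, IL-6 and IL-23 for theirs in the Th17 program, and IL-10 for restraining inflammation.

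Promoters are shown for 2 pairs of genes whose chains belong together in the results: Il12rb2 and Il23r, which lie side by side and moved in opposite directions between Eos+ Tregs and Tconv, and Ifngr1 and Ifngr2, the chains of 1 receptor, which did so between the Treg populations. The sequences are those of RefSeq on GRCm38.p6, written 5′ to 3′ on the strand of the gene, from 250 bases before the gene's start. Capitals mark matches to 6 searched motifs, which were the STAT motif TTCNNNGAA, the core of the Ikaros family TGGGAA, the forkhead motif TGTTTAC, the nuclear receptor motif AGGTCA, the Runx motif TGTGGT and the GC box GGGCGG. Both strands were searched, and GC box matches could overlap each other.
Il12rb2: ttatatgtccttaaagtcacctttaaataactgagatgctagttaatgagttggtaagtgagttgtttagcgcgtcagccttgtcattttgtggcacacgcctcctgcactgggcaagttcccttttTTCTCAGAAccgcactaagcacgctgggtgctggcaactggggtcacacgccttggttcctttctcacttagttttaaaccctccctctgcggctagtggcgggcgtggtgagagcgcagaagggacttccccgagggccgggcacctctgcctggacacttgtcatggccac
Il23r: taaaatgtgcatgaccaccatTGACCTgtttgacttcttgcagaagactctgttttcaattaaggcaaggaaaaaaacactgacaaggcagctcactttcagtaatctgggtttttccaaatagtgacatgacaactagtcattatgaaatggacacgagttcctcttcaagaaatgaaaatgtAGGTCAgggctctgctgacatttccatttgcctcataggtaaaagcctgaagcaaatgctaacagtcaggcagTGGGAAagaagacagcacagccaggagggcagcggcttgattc
Ifngr1: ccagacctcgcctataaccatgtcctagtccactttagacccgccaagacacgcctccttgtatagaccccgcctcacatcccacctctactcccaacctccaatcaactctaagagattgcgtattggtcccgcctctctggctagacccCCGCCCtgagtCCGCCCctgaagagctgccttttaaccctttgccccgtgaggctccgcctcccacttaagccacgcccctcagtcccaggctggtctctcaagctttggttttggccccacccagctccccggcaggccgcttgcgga
Ifngr2: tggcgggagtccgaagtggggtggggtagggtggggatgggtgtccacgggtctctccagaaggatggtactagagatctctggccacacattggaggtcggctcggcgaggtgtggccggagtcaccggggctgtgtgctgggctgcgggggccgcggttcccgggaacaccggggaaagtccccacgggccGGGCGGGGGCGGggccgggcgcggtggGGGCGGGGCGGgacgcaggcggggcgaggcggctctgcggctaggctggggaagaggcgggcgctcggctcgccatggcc
The Il12rb2 window was chr6:67376139-67376438 on the minus strand and the Il23r window chr6:67491806-67492105 on the minus strand. The Ifngr1 window was chr10:19591699-19591998 and the Ifngr2 window chr16:91546809-91547108, both on the plus strand. Within these 4 windows, Il12rb2 held 1 STAT match (TTCTCAGAA), Il23r held 1 Ikaros core and 2 nuclear receptor motifs, 1 on each strand, Ifngr1 held 2 GC boxes and Ifngr2 held 4. Of 32851 RefSeq promoters of the same length, 8.3% held the STAT motif, 25.6% the Ikaros core, 3.65% the forkhead motif, 16.3% the nuclear receptor motif, 16.8% the Runx motif and 35.7% the GC box. Promoters were matched for 7 of the 10 genes, and Il12rb1, Il10ra and Il27ra were not among them. A match describes letters in the window and is not a measured binding site.

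Levels below are CPM (counts scaled to a fixed library total), scaled for library composition by TMM, and the 4 values of a group are given in the order of its replicates 1 to 4. A gene is said to have risen or fallen where its adjusted p in edgeR's quasi-likelihood test over all tested genes was under 0.05, and log2 changes carry the SE of the fit. The 3 comparisons share groups and are therefore not independent of each other. Libraries held 23.9 to 37.9 M expected counts. Ikzf4 followed the group names, at 292 to 334 CPM in Eos+ Tregs, 155 to 181 CPM in Eos- Tregs and 22.7 to 27.4 CPM in Tconv, and so did Ccr6, at 227 to 263, 10.4 to 19.7 and 1.08 to 4.22 CPM. Cxcr4 transcript overlapped between the Treg populations, at 25.2 to 52.9 CPM in Eos+ and 22.7 to 42.3 CPM in Eos- Tregs. The Treg libraries numbered 1 stood apart: Foxp3 was 53.3 and 55.0 CPM there and 485 to 862 CPM in the other 6 Treg libraries. The 4 Treg markers summed to 1072 to 2486 CPM in all Treg libraries and to 83.9 to 98.5 CPM in Tconv. Markers of CD4 T cells summed to 3960 to 4410 CPM in Eos+ Tregs, 4508 to 4945 CPM in Eos- Tregs and 5864 to 6549 CPM in Tconv, with separate ranges. Markers of double-positive thymocytes summed to 39.7 to 297, 29.7 to 325 and 69.0 to 284 CPM in the same order, with a wide spread within each group. In sorted bulk RNA, fewer cells that carry a transcript and less transcript per cell cannot be told apart.

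Between Eos+ and Eos- Tregs, 7 of the 10 receptor genes changed, against 16.3% of all tested genes. Il10ra, Il12rb1, Il23r and Ifngr1 were higher in Eos+ Tregs (9.82% of all genes rose), and Il6st, Il27ra and Ifngr2 were lower (6.45% fell). Against Tconv, 6 of 10 changed in Eos+ Tregs, where 30.3% of all genes did. Il10ra, Il12rb1, Il23r and Ifngr1 were again higher (17.3% of all genes rose), and Il12rb2 and Ifngr2 were lower (13% fell). In Eos- Tregs against Tconv, Il6st, Il27ra and Ifngr1 rose and none fell, so that 3 of 10 changed against 14.6% of all genes (8.76% rose and 5.89% fell). The median log2 change of the 10 genes was 0.13, 0.35 and 0.14 in these comparisons, and that of all tested genes 0.0027, -0.0075 and -0.012. The libraries of the 2 groups did not overlap for 5, 6 and 4 of the 10 genes, against 20%, 33.1% and 20.1% of all tested genes. Without the libraries numbered 1 in all 3 groups, 7 genes changed between the Treg populations, 5 between Eos+ Tregs and Tconv and 4 between Eos- Tregs and Tconv. Over all fits that left out libraries, 1910 to 2936, 3882 to 4947 and 1574 to 2884 of all tested genes changed in these comparisons.

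**Figure D1:**
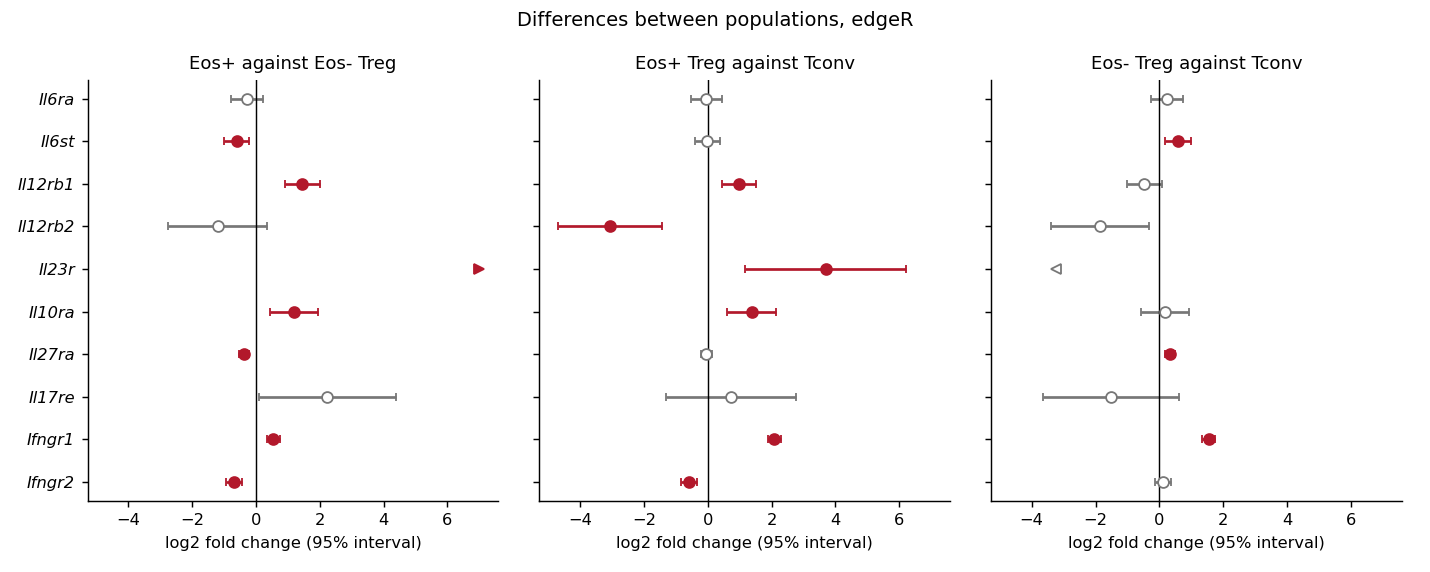
Log2 change of each receptor gene in the 3 comparisons, with 95% intervals from edgeR; filled red points passed an adjusted p of 0.05, open grey points did not, and triangles are bounds for Il23r, of which Eos- Treg libraries held 0 counts. Between Eos+ and Eos- Tregs, 4 genes lie to the right of 0 with filled points and 3 to the left.

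The ligand-binding chain of the interferon-gamma receptor was the most abundant of the 10 transcripts per exon length in both Treg populations. Ifngr1 (ENSMUSG00000020009.13, chromosome 10, 19591949 to 19610229, plus strand, mm10) was at 875, 792, 809 and 705 CPM in Eos+ Tregs, 615, 473, 531 and 565 CPM in Eos- Tregs and 181, 178, 189 and 201 CPM in Tconv. The 3 groups formed separate steps, with every Eos+ Treg library above every Eos- Treg library and every Tconv library below both. Ifngr1 was 1.46-fold higher in Eos+ than in Eos- Tregs (log2 change 0.54 ± 0.092 (SE), adjusted p = 0.00158, edgeR). Relative to Tconv it was 4.24-fold higher in Eos+ Tregs (adjusted p = 1.79e-08) and 2.91-fold higher in Eos- Tregs (adjusted p = 4.77e-07).

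Ifngr2, whose product is the signalling partner of that chain, did not follow it. Ifngr2 (ENSMUSG00000022965.8, chromosome 16, 91547072 to 91565623, plus strand) was at 60.2, 80.3, 84.7 and 84.4 CPM in Eos+ Tregs, 104, 132, 136 and 127 CPM in Eos- Tregs and 126, 105, 113 and 119.7 CPM in Tconv. Eos+ Treg libraries lay below all others, while the other two groups overlapped. Ifngr2 was 1.61-fold lower in Eos+ than in Eos- Tregs (log2 change -0.69 ± 0.119 (SE), adjusted p = 0.00178, edgeR) and 1.5-fold lower than in Tconv (adjusted p = 0.00236). Between Eos- Tregs and Tconv the log2 change was 0.10, with a 95% interval from -0.15 to 0.36 (adjusted p = 0.631). Both promoters shown above hold GC boxes and neither holds a STAT match.

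The balance of the 2 interferon-gamma receptor transcripts differed between all 3 groups. Ratios here and below are of CPM with 0.5 CPM added to both genes. The ratio of Ifngr2 to Ifngr1 ran from 0.0693 to 0.120 in Eos+ Treg libraries and from 0.170 to 0.281 in Eos- Treg libraries. In Tconv libraries it ran from 0.590 to 0.694. No library of a group came within the range of another. On the log2 scale, with 0.5 CPM added to both genes, the ratio was -3.36 ± 0.34, -2.13 ± 0.32 and -0.69 ± 0.11 (SD, n = 4). The ratio was described and not tested, since it is made of genes tested above.

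**Figure D2:**
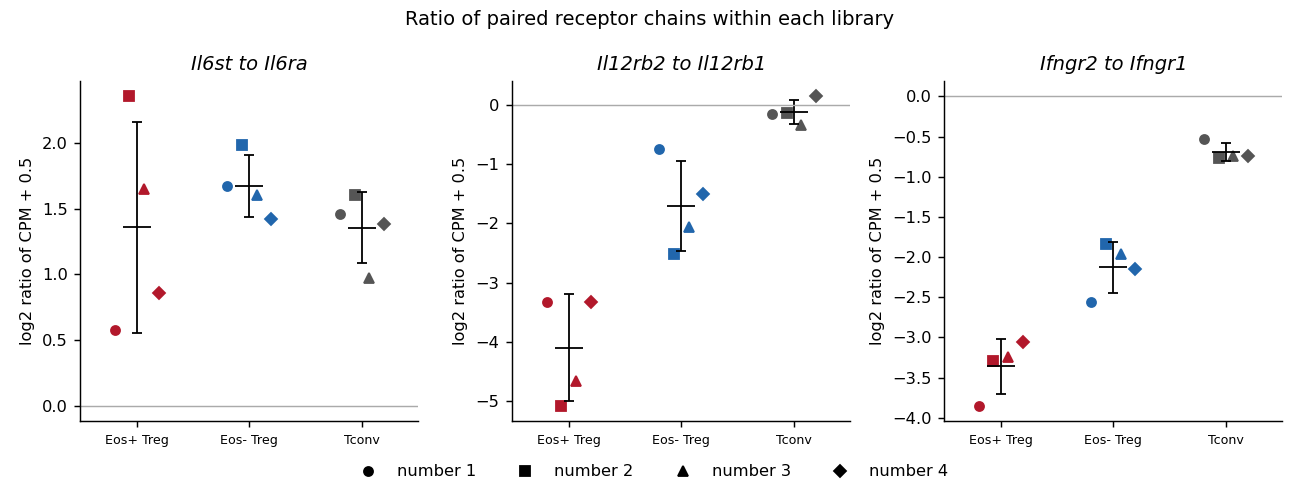
Log2 ratio of the chains of 3 receptors in each library (points), with 0.5 CPM added to both genes, and the mean and SD of each group of 4. The 3 groups are separate for Ifngr2 to Ifngr1 and for Il12rb2 to Il12rb1, and overlap for Il6st to Il6ra.

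Il12rb1, the chain that IL-12 and IL-23 receptors share, was higher in Eos+ Tregs than in both other populations. Il12rb1 (ENSMUSG00000000791.9, chromosome 8, 70808449 to 70821424, plus strand) was at 47.6, 25.1, 40.7 and 26.6 CPM in Eos+ Tregs, 18.3, 10.5, 10.3 and 11.9 CPM in Eos- Tregs and 22.4, 16.1, 14.1 and 18.1 CPM in Tconv. Every Eos+ Treg library was above all the others, and Eos- Tregs and Tconv overlapped. The gene was 2.75-fold higher than in Eos- Tregs (log2 change 1.46 ± 0.251 (SE), adjusted p = 0.00177, edgeR) and 1.98-fold higher than in Tconv (adjusted p = 0.00904). Eos- Tregs and Tconv differed by a log2 change of -0.47 (adjusted p = 0.242), with Eos- Tregs lower in 4 of 4 replicate numbers.

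Il12rb2, the partner of the shared chain in the IL-12 receptor, was lower in Eos+ Tregs than in Tconv. Il12rb2 (ENSMUSG00000018341.12, chromosome 6, 67291318 to 67376188, minus strand) was at 4.30, 0.258, 1.14 and 2.20 CPM in Eos+ Tregs, 10.8, 1.42, 2.11 and 3.85 CPM in Eos- Tregs and 20.1, 14.7, 11.1 and 20.1 CPM in Tconv. All 8 Treg libraries were below all Tconv libraries, and the Treg populations overlapped. The transcript was 8.37-fold lower in Eos+ Tregs than in Tconv (log2 change -3.06 ± 0.748 (SE), adjusted p = 0.00736, edgeR). Between Eos- Tregs and Tconv the log2 change was -1.87 (adjusted p = 0.102), and without Eos- Treg replicate 1 it was -2.74 (adjusted p = 0.0162). With the replicate number as a block it was -2.35 (adjusted p = 0.00457). The Treg populations differed by -1.20 (adjusted p = 0.299), with Eos+ Tregs lower in 4 of 4 numbers. Il12rb2 shares 1519 of its 3794 exon bases with Serbp1 on the opposite strand, and without strand their reads cannot be told apart. Serbp1 was at 257 to 330 CPM in Eos+ Tregs, 265 to 300 CPM in Eos- Tregs and 321 to 354 CPM in Tconv. Markers of NK, gamma-delta and NKT cells were also higher in Tconv, with summed levels of 72.7 to 145 CPM against 11.6 to 49.3 CPM in Eos+ and 29.1 to 69.7 CPM in Eos- Tregs. Of the 5 tested, 3 were lower in Eos+ Tregs than in Tconv and 2 in Eos- Tregs, where 13% and 5.89% of all genes fell. Among these markers, Klrb1c had means of 1.88, 4.76 and 51.8 CPM in Eos+ Tregs, Eos- Tregs and Tconv. Zbtb16 had means of 0.0364, 0.226 and 5.62 CPM in the same order. Eomes went the other way, at 3.21, 6.12 and 0.964 CPM. Ncr1, which marks NK cells, was at most 0.176 CPM in Eos+ and 0.138 CPM in Eos- Tregs and at 0 in Tconv. The part of such cells in the Il12rb2 values was not tested.

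Il23r, the other partner of the shared chain, was higher in Eos+ Tregs than in both other populations. Il23r (ENSMUSG00000049093.9, chromosome 6, 67422932 to 67491855, minus strand) was at 2.04, 3.96, 3.70 and 2.7 CPM in Eos+ Tregs, from 65, 138, 127 and 92 counts. The 4 Eos- Treg libraries held 0 counts. In Tconv the levels were 0.0327, 0.0710, 0.839 and 0 CPM, and 27 of the 30 counts came from replicate 3. Il23r transcript was thus low in Eos+ Tregs but present in all 4 libraries, at levels that no library of another group reached. Against a floor of 3 counts over the Eos- Treg group it was at least 128-fold higher in Eos+ Tregs (adjusted p = 0.00475, edgeR), a bound that covers counting error only. Relative to Tconv it was 13-fold higher (log2 change 3.70 ± 1.17 (SE), adjusted p = 0.0321). That change was 6.42 without Tconv replicate 3 (adjusted p = 8.47e-04), and the call was lost when any of 5 other libraries was left out (Eos+ Treg replicates 2, 3 and 4 and Tconv replicates 1 and 2, adjusted p from 0.0543 to 0.0838) or when number 1 was (adjusted p = 0.0683). Trdc, which marks gamma-delta T cells, known to carry this receptor, was 6.98 to 27.1 CPM in Eos+ Tregs, 18 to 38.2 CPM in Eos- Tregs and 21.4 to 39.0 CPM in Tconv. Tcrg-C1, another gamma-delta marker, was 1.41 to 17.4, 0.948 to 16.7 and 6.65 to 18.8 CPM in the same order. The part of such cells in the Il23r values was not tested.

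Il12rb2 and Il23r are neighbours on chromosome 6, with 46743 bases and no protein-coding gene between them, and both are read from the minus strand. Relative to Tconv, Eos+ Tregs held less of the first and more of the second. With 0.5 CPM added to both genes, the ratio of Il12rb2 to Il12rb1 ran from 0.0296 to 0.0996 in Eos+ Treg libraries. It ran from 0.175 to 0.600 in Eos- Treg libraries and from 0.792 to 1.10 in Tconv libraries. Il12rb2 was at 0.258 CPM in Eos+ Treg replicate 2, below the added 0.5 CPM, which raised the lowest ratio. As with the interferon-gamma receptor, the ranges of the 3 groups were separate, at -4.10 ± 0.90, -1.70 ± 0.77 and -0.12 ± 0.20 on the log2 scale (SD, n = 4).

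**Figure D3:**
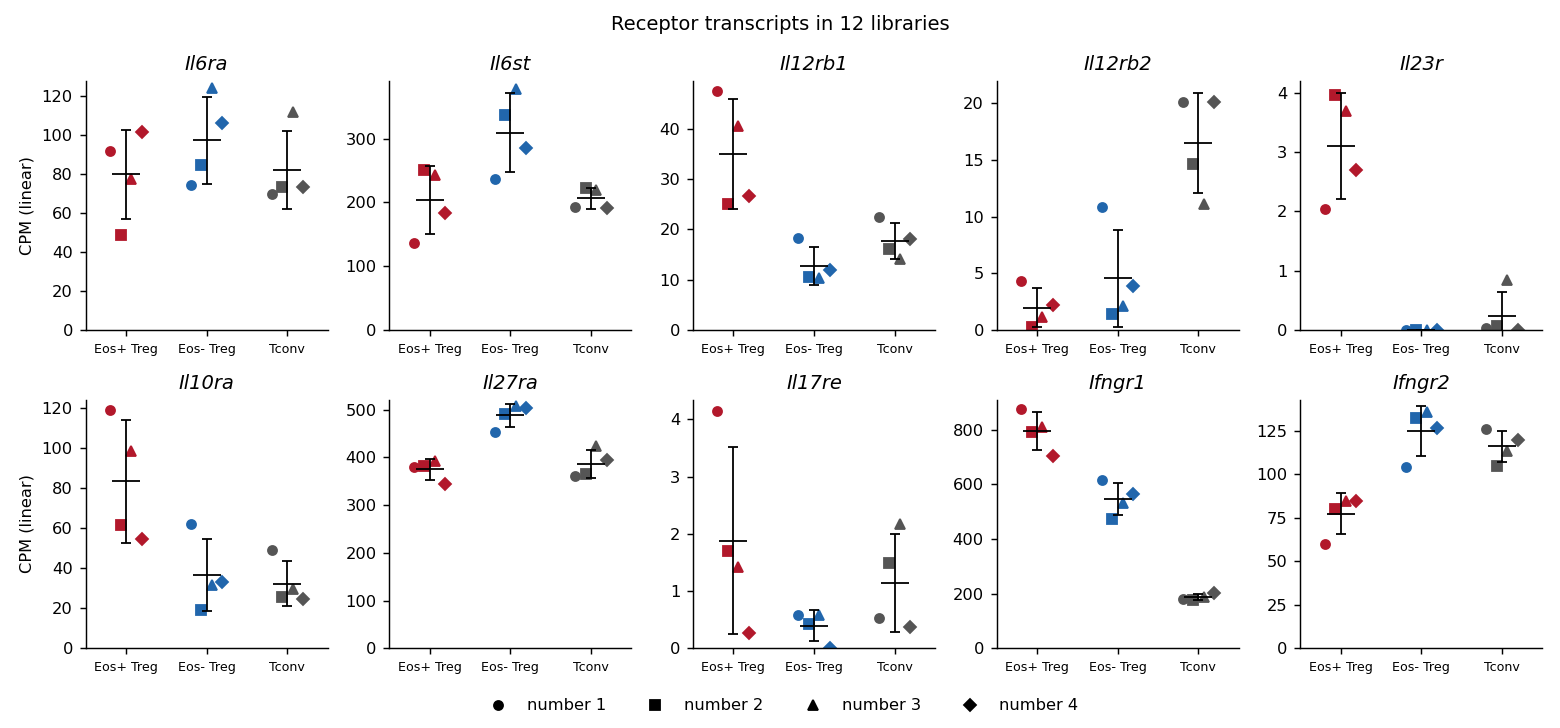
Level of each of the 10 receptor genes in every library (points, CPM on a linear axis from 0, 1 symbol per replicate number) by population, with the mean and SD of each group of 4. Ifngr1 falls in steps from Eos+ Tregs to Eos- Tregs to Tconv, and Il23r lies at 2.04 to 3.96 CPM in Eos+ Tregs and at 0 in Eos- Tregs.

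Il10ra, which encodes the IL-10-binding chain, was higher in Eos+ Tregs, with a wide spread between libraries. Il10ra (ENSMUSG00000032089.16, chromosome 9, 45253837 to 45269149, minus strand) was at 119, 61.6, 98.6 and 54.6 CPM in Eos+ Tregs, 61.9, 19.3, 31.7 and 33.3 CPM in Eos- Tregs and 48.9, 25.7, 29.6 and 24.8 CPM in Tconv. Replicate 1 was the highest library of each group. Eos+ Tregs lay above all Tconv libraries, but overlapped Eos- Tregs through replicate 1 of the latter. The gene was 2.29-fold higher in Eos+ than in Eos- Tregs (log2 change 1.19 ± 0.352 (SE), adjusted p = 0.0357, edgeR) and 2.59-fold higher than in Tconv (adjusted p = 0.0102). Eos- Tregs and Tconv differed by a log2 change of 0.18, with a 95% interval from -0.58 to 0.94 (adjusted p = 0.808). Between the Treg populations the ratio within a replicate number was 1.64 to 3.19, and with the number as a block the adjusted p was 5.09e-04. The call ended when any of 5 libraries was left out (Eos+ Treg replicates 1 and 3 and Eos- Treg replicates 2, 3 and 4, adjusted p from 0.0813 to 0.103) or when Tconv was kept out of the fit (adjusted p = 0.0568).

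Transcripts that mark B cells, which carry Il10ra and Ifngr1 as well, were also higher in Eos+ Tregs. Their summed level was 1379 to 1790 CPM in Eos+ Tregs, 176 to 466 CPM in Eos- Tregs and 222 to 390 CPM in Tconv. Against Eos- Tregs 3 of the 5 tested rose, beside 9.82% of all genes. Most of the sum was Ighm, the heavy chain of immunoglobulin M, at 1330 to 1656 CPM in Eos+ Tregs. Pax5, a defining B cell factor, was at most 0.376 CPM there. Markers of dendritic cells and macrophages summed to 15.4 to 102 CPM in Eos+ Tregs, 1.04 to 66.3 CPM in Eos- Tregs and 11.9 to 43.1 CPM in Tconv. Markers of epithelium and stroma summed to 23.5 to 39.2 CPM in Eos+ Tregs, 11.5 to 15.9 CPM in Eos- Tregs and 6.28 to 9.07 CPM in Tconv, with separate ranges. In Eos+ relative to Eos- Tregs 2 of the 4 tested rose, beside 9.82% of all genes. Most of the sum was Epcam, an epithelial adhesion molecule, with means of 30.4, 12.7 and 6.93 CPM. Aire had means of 1.58, 0.0245 and 0.221 CPM in the same order. Col1a1 went the other way, at 0.188, 0.578 and 0.526 CPM. Krt5, Krt8 and Pdgfra had means of 0.152, 0.544 and 0.0219 CPM in Eos+ Tregs. The part of these transcripts in the higher levels of Il10ra, Ifngr1, Il12rb1 and Il23r was not tested.

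The chains that bring IL-6 and IL-27 to gp130 gave smaller differences. Il27ra (ENSMUSG00000005465.9, chromosome 8, 84030294 to 84042589, minus strand) was at 380.5, 383, 393 and 344 CPM in Eos+ Tregs, 453, 491, 507 and 503 CPM in Eos- Tregs and 361, 365, 425 and 394 CPM in Tconv. Eos- Tregs stood above all other libraries, and Eos+ Tregs and Tconv overlapped. Il27ra was 1.3-fold lower in Eos+ than in Eos- Tregs (log2 change -0.38 ± 0.075 (SE), adjusted p = 0.00389, edgeR) and 1.26-fold higher in Eos- Tregs than in Tconv (adjusted p = 0.00871). Between Eos+ Tregs and Tconv the change was -0.04, with a 95% interval from -0.20 to 0.12 (adjusted p = 0.725).

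Il6st, the gene of gp130, followed the same order with more spread. Il6st (ENSMUSG00000021756.12, chromosome 13, 112464070 to 112510086, plus strand) was at 137, 252, 243 and 184 CPM in Eos+ Tregs, 237, 337, 378 and 285 CPM in Eos- Tregs and 193, 223, 219 and 191 CPM in Tconv. Eos- Tregs were above all Tconv libraries and, within each replicate number, above Eos+ Tregs, although the ranges of the Treg populations overlapped. The transcript was 1.52-fold lower in Eos+ than in Eos- Tregs (log2 change -0.60 ± 0.182 (SE), adjusted p = 0.0396, edgeR) and 1.5-fold higher in Eos- Tregs than in Tconv (adjusted p = 0.0490). Between Eos+ Tregs and Tconv it differed by -0.02 (adjusted p = 0.953). The first call was lost without any library other than Eos+ Treg replicates 2 and 3 and Eos- Treg replicate 1 (adjusted p from 0.0506 to 0.121), and with the replicate block it had an adjusted p of 0.00175. The second was lost without any library other than Eos+ Treg replicates 1 and 2 and Eos- Treg replicate 1 (adjusted p from 0.0526 to 0.148).

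Il6ra, the IL-6-binding chain, passed the test in no comparison. Il6ra (ENSMUSG00000027947.11, chromosome 3, 89864059 to 89913196, minus strand) was at 91.7, 48.8, 77.2 and 101 CPM in Eos+ Tregs, 74.0, 84.6, 124 and 106 CPM in Eos- Tregs and 69.7, 73.0, 112 and 73.1 CPM in Tconv. The 3 groups overlapped. The log2 change was -0.29 between the Treg populations, with a 95% interval from -0.78 to 0.21 (adjusted p = 0.461, edgeR), and the adjusted p was 0.924 for Eos+ Tregs and 0.545 for Eos- Tregs against Tconv. The ratio of Il6st to Il6ra was 1.36 ± 0.80, 1.67 ± 0.24 and 1.35 ± 0.27 on the log2 scale (SD, n = 4) and overlapped between groups. Il6ra shares 242 exon bases with the antisense gene Gm42809, which was at 5.31 to 7.62 CPM in Eos+ Tregs, 2.62 to 3.45 CPM in Eos- Tregs and 0.342 to 1.24 CPM in Tconv.

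Il17re, whose product binds IL-17C, passed the test in no comparison either and had the lowest mean per exon length of the 10 in Eos+ Tregs. Il17re (ENSMUSG00000043088.16, chromosome 6, 113458484 to 113470758, plus strand) was at 4.14, 1.69, 1.43 and 0.264 CPM in Eos+ Tregs, 0.582, 0.427, 0.588 and 0 CPM in Eos- Tregs and 0.523, 1.49, 2.18 and 0.368 CPM in Tconv. The groups overlapped, with replicate 4 the lowest library of each. The adjusted p was 0.155 between the Treg populations, 0.621 for Eos+ Tregs and 0.354 for Eos- Tregs against Tconv (edgeR). With the replicate block the log2 change between the Treg populations was 2.33 (adjusted p = 0.0479), and Eos+ Tregs were higher in 4 of 4 numbers.

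Set against exon length, the order of the receptors differed between populations. In Eos+ Tregs, Ifngr1 led at 279 ± 24.6 CPM per kb of exon (SD, n = 4), followed by Il27ra at 107 ± 6.13, and neither overlapped its neighbour in rank. Il10ra, Ifngr2 and Il6st came next at 23.9, 20.5 and 18.4 CPM per kb and overlapped in turn, then Il6ra and Il12rb1 at 9.23 and 8.53, and last Il23r, Il12rb2 and Il17re at 1.25, 0.520 and 0.321. Tconv placed Il27ra first at 110.5 ± 8.48 CPM per kb and Ifngr1 after it at 65.8 ± 3.58, with separate ranges. There Ifngr2 at 30.8 and Il6st at 18.6 CPM per kb followed, Il12rb2 and Il12rb1 were level at 4.35 and 4.31, and Il17re and Il23r were lowest at 0.194 and 0.0947. In Eos- Tregs, Ifngr1 at 192 stood above Il27ra at 139.7 CPM per kb, and Il23r was last. The lengths were sums over all annotated exons, so levels between genes are approximate.

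Across the 12 libraries, which fall into 3 groups, the genes of 5 CPM or more whose log2 CPM followed Ifngr1 most closely were Ttc39b (Pearson r = 0.994), Socs2 (r = 0.991) and Ikzf4 (r = 0.990). Socs2 encodes an inhibitor of cytokine signalling and Ikzf4 encodes Eos. For Il23r the closest were Rad51b (r = 0.962), Lgals1 (r = 0.954) and Nfatc1 (r = 0.948), for Il12rb2 Mctp2 (r = 0.956), for Ifngr2 Ugcg (r = 0.974) and for Il10ra Fpgt (r = 0.980). Il12rb1 was closest to BC017158 (r = 0.952), Il27ra to Mmp11 (r = 0.934), Il6st to Trp53bp2 (r = 0.931), Il17re to Tmem33 (r = 0.939) and Il6ra to Tex2 (r = 0.898). These are descriptions over libraries that share their grouping.

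Of 17 other chains that pair with these receptors or belong to their families, 9 were tested. Il10rb, the partner of Il10ra, had its group means in the same order as Ifngr1, with means of 154 CPM in Eos+ Tregs, 94.6 CPM in Eos- Tregs and 36.0 CPM in Tconv. It was 1.63-fold higher in Eos+ than in Eos- Tregs (adjusted p = 6.13e-04, edgeR) and 4.27-fold higher than in Tconv (adjusted p = 4.39e-08). Il17ra, the partner of Il17re, was 1.70-fold lower in Eos+ than in Eos- Tregs, at 302 against 512 CPM (adjusted p = 9.61e-04). In all, 2 of 9 rose and 2 fell between the Treg populations (median log2 change -0.13), beside 9.82% and 6.45% of all genes. Against Tconv 4 rose and 1 fell in each Treg population, with medians of -0.08 and 0.59. There 17.3% of all genes rose and 13% fell in Eos+ Tregs, and 8.76% and 5.89% in Eos- Tregs. Without the libraries numbered 1, 1 rose and 1 fell between the Treg populations, where fits that left out libraries called 1910 to 2936 of all genes. The gene that fell against Tconv was Il17rb, a chain of the IL-25 receptor. Its call in Eos+ Tregs ended on removal of Tconv replicate 1, 2 or 4 or of Eos+ Treg replicate 2, 3 or 4 (adjusted p from 0.0579 to 0.0966). In Eos- Tregs it ended on removal of Tconv replicate 1 or 2 or of Eos- Treg replicate 2, 3 or 4 (adjusted p from 0.0526 to 0.0668).

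Of 12 ligand genes, 6 could be tested. Osm, the gene of oncostatin M, had means of 30.7 CPM in Eos+ Tregs, 37.3 CPM in Eos- Tregs and 23.8 CPM in Tconv and was 1.57-fold higher in Eos- Tregs than in Tconv (adjusted p = 0.00597, edgeR). Ebi3, a subunit of IL-27 and IL-35, was at 61.8 CPM in Eos+ Tregs, 2.68 CPM in Eos- Tregs and 0.607 CPM in Tconv. Its 4 Eos+ Treg libraries lay at 47.2 to 86.9 CPM, above 4.86 CPM, the highest library elsewhere. It was 23.2-fold higher in Eos+ than in Eos- Tregs (adjusted p = 1.86e-04, edgeR). Il12a, which encodes the other subunit of IL-35 and 1 subunit of IL-12, also rose but reached only 0.545 CPM, and Il27, the other subunit of IL-27, was at 0 counts in all libraries. Against Tconv 3 ligands rose in each Treg population and none fell (medians 4.08 and 2.11), beside 17.3% and 8.76% of all genes that rose. The median of 2.11 left out Il12a, which held 0 counts in Eos- Tregs and 2 in Tconv. With the fitted change of Il12a it was 1.38. The count for Eos+ Tregs was 5 with the replicate block, where 5571 of the 15361 tested genes changed, and 5 without Eos- Treg replicate 1. Fits that left out libraries called 3882 to 4947 of all genes there.

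Of the 11 Janus kinases and STATs, 7 rose in Eos+ Tregs and 8 in Eos- Tregs against Tconv, where 17.3% and 8.76% of all genes rose, and none fell (medians 0.44 and 0.53). Stat4, used by IL-12, rose at both steps, with means of 195, 128 and 68.3 CPM in Eos+ Tregs, Eos- Tregs and Tconv (1.53-fold between the Treg populations, adjusted p = 0.00285, edgeR). Stat3, used by IL-6, IL-10 and IL-23, was 2.27-fold higher in Eos+ Tregs than in Tconv (adjusted p = 2.41e-05) and did not pass between the Treg populations (adjusted p = 0.235). Jak1, the kinase bound to gp130 and Ifngr1, fell 1.29-fold in Eos+ relative to Eos- Tregs (adjusted p = 0.0147). It was one of 3 calls there beside Tyk2 and Stat4, which rose (median -0.17), where 16.3% of all genes changed. The call of Tyk2 was lost without replicate 1 or 2 of Eos- Tregs or replicate 2 or 3 of Eos+ Tregs (adjusted p from 0.0614 to 0.0817). With the replicate block, 6 of the 11 genes changed between the Treg populations, 3 in each direction, beside 3498 of the 15361 tested genes.

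Among 18 inhibitors and shedding enzymes, Socs2, Socs5, Cish and Pias3 rose in Eos+ relative to Eos- Tregs and none fell (median -0.0054), beside 9.82% of all genes that rose. With the replicate block 7 of the 18 rose, where 3498 of the 15361 tested genes changed in either direction. Cish, induced by STAT5 and an inhibitor of cytokine signalling, had means of 395, 277 and 38.7 CPM in Eos+ Tregs, Eos- Tregs and Tconv, a rise of 10.2-fold between Eos+ Tregs and Tconv (adjusted p = 4.39e-08, edgeR). Socs2 was 21.8-fold higher in Eos+ Tregs than in Tconv (adjusted p = 2.17e-07). Socs3, which restrains signalling through gp130, did not pass between the Treg populations (adjusted p = 0.206) and was 3.13-fold higher in Eos+ Tregs than in Tconv (adjusted p = 0.00351). Against Tconv 7 rose and 4 fell in Eos+ Tregs (median 0.10), where 17.3% of all genes rose and 13% fell. In Eos- Tregs 7 rose and 1 fell (median 0.21), where 8.76% of all genes rose and 5.89% fell. Without the libraries numbered 1 the first count was 6 rising and 1 falling. The second was 4 rising and 1 falling on removal of Tconv replicate 1, 2 or 4 or of replicate 3 or 4 of Eos- Tregs. In these comparisons, fits that left out libraries called 3882 to 4947 and 1574 to 2884 of all genes.

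**Figure D4:**
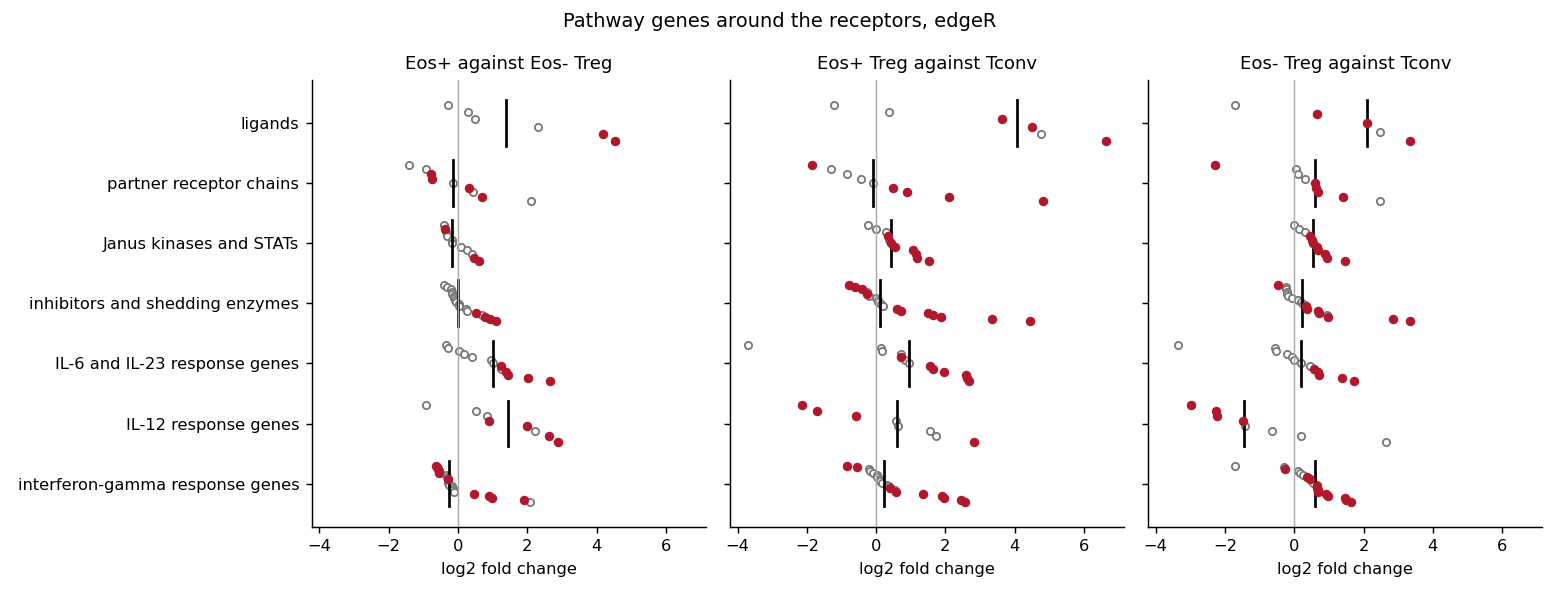
Log2 change of each tested gene in 7 lists of pathway genes for the 3 comparisons. Points are filled where edgeR's adjusted p was under 0.05, and a bar marks the list's median. Genes with no count in 1 group are drawn at their bound. Il12a is left out of Eos- Tregs against Tconv, where neither group held over 3 counts. The medians of IL-6 and IL-23 response genes and of IL-12 response genes between Eos+ and Eos- Tregs lie at 1.02 and 1.45.

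Genes known to respond to IL-6 and IL-23 were higher in Eos+ than in Eos- Tregs for 5 of the 13 tested, and none fell (median log2 change 1.02). Of all tested genes, 9.82% rose and 6.45% fell there. The 5 were Batf, Rora, Ahr, Maf and Cebpb, transcription factors that also serve other pathways. Maf had means of 29.9, 4.78 and 4.79 CPM in Eos+ Tregs, Eos- Tregs and Tconv (6.27-fold between the Treg populations, adjusted p = 5.26e-04, edgeR), and Rora 207, 50.8 and 34.0 CPM (4.07-fold, adjusted p = 9.81e-06). Against Tconv, where 17.3% and 8.76% of all genes rose, 7 rose in Eos+ Tregs and 5 in Eos- Tregs (medians 0.96 and 0.21). The second count was 2 on removal of Tconv replicate 3 or of replicate 4 of Eos- Tregs, and 3 on removal of Tconv replicate 2 or 4, of Eos- Treg replicate 2 or 3 or of Eos+ Treg replicate 3. For Eos- Tregs against Tconv, fits that left out libraries called 1574 to 2884 of all genes. With the replicate block 7 rose and 1 fell between the Treg populations, where 3498 of the 15361 tested genes changed. The call of Ahr in Eos- Tregs was lost without any library other than Eos+ Treg replicates 1 and 4, Eos- Treg replicate 3 and Tconv replicate 1 (adjusted p from 0.0632 to 0.125).

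IL-12 response genes split. Between the Treg populations 4 of 8 rose and none fell (median 1.45), where 9.82% of all genes rose and 6.45% fell. The 4 were Il18r1 and Il18rap, the chains of the IL-18 receptor, the chemokine receptor gene Cxcr3 and Runx3. Il18r1 was 6.16-fold higher in Eos+ Tregs, at 61.8 against 10.0 CPM (adjusted p = 1.40e-04, edgeR). Cxcr3 no longer passed on removal of replicate 1 of Eos+ Tregs or of replicate 3 or 4 of Eos- Tregs (adjusted p from 0.0561 to 0.0640). Tbx21, the gene of the Th1 factor T-bet, and the granzyme gene Gzmb were lower in both Treg populations than in Tconv, with Tbx21 at 7.31, 5.08 and 24.0 CPM and Gzmb at 8.70, 4.89 and 38.1 CPM. Against Tconv 1 rose and 3 fell in Eos+ Tregs (median 0.61), and 4 fell in Eos- Tregs (median -1.45). Of all genes, 17.3% rose and 13% fell in Eos+ Tregs, and 8.76% rose and 5.89% fell in Eos- Tregs. The summed level of the NK, gamma-delta and NKT cell markers given beside Il12rb2 was also higher in Tconv. Among these markers Eomes went the other way and Ncr1 was at 0 in Tconv. The part of such cells in the values of the IL-12 response genes was not tested.

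Interferon-gamma response genes moved both ways between the Treg populations, where 9.82% of all genes rose and 6.45% fell. Of the 20 tested, 4 were higher and 6 lower in Eos+ Tregs (median -0.26). On removal of Eos+ Treg replicate 3 these counts were 2 and 4, where fits that left out libraries called 1910 to 2936 of all genes. Irf8, Gbp3, Cxcl10 and Icam1 were the higher ones, and Icam1, an adhesion molecule, was 1.97-fold higher (adjusted p = 1.61e-04, edgeR), while Gbp3 no longer passed on removal of replicate 3 of Eos+ Tregs (adjusted p = 0.0518). Irf1, Gbp4, Igtp, Irgm1, Psmb10 and Nlrc5 were lower, by 1.22-fold for Psmb10, a subunit of the immunoproteasome, to 1.56-fold for Nlrc5, an activator of MHC class I genes (adjusted p = 0.0325 and 0.0263). Against Tconv, 7 rose and 2 fell in Eos+ Tregs and 11 rose and 1 fell in Eos- Tregs (medians 0.24 and 0.60). The shares of all genes were 17.3% rising and 13% falling in Eos+ Tregs, and 8.76% and 5.89% in Eos- Tregs.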

How the data were processed

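RNA of 12 sorted mouse thymus samples was converted from 1 ng of total RNA with a low-input template-switching kit and a tagmentation kit, per the labels' protocols; such libraries carry no strand. The authors deposited 1 table of expected counts per gene, made with cutadapt 1.18, STAR 2.7.0f and RSEM 1.3.1 on mm10 per the submitters' processing notes; the annotation release is not given in the sources used here. Between 9.54% and 10.7% of the values per library were not whole, by more than 1e-09. The 55450 gene IDs all matched GENCODE M21, which gave positions and exon lengths.

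After rounding, expected counts went through edgeR 4.0.16 under R 4.3.3 (TMM factors, filterByExpr, quasi-likelihood F test, 1 mean per group over 12 libraries without a block). Two-sided p-values had a Benjamini-Hochberg adjustment over 15361 genes per comparison, and SEs are the log2 change over the root of F. The main fit, the replicate block, DESeq2 and limma-voom were checked on simulated counts, where DESeq2 called more unchanged genes than the other tools. A group with 0 counts was set to 3 counts in all for a bound on the fold. Such bounds cover counting error only, because PCR copies were not marked by molecular identifiers. Alternatives were DESeq2 1.42.0, limma-voom (limma 3.58.1), other scalings, no filter, a test against a 1.5-fold change, fits of 2 groups, a replicate block and leaving out libraries.

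The receptors, pathway lists and markers were chosen with earlier results of these data known, and the promoters shown were chosen after the values were seen. Named genes were all 10 receptors, up to 3 called genes of the largest change per list and comparison with a mean of 5 CPM or more in a group, the labelled genes, and the 3 genes closest to each receptor; other pathway genes were named after their values were seen, and the text gives a subset. Library names share a code per replicate number, whose meaning the labels do not give. Same-numbered libraries deviated together (r = 0.138 to 0.318 in 12 of 12 pairs, against -0.226 to 0.0695 in the 36 others). The main fit did not use this pairing. Fits with the replicate number as a block, which do use it, are given as an alternative. RefSeq protein sequences were not used here.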

Additional observations from a re-analysis of the deposited data

Results flagged for a closer look

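Among the 10 receptors, each measured in 3 groups of 4 libraries, 2 sets of 4 values held a library far from its fellows, where chance gives about 1 in 20 groups. Il6ra was 112 CPM in Tconv replicate 3 and 69.7 to 73.1 CPM in the other Tconv libraries. Il23r was 0.839 CPM in the same library and 0 to 0.0710 CPM in the other Tconv libraries, and its level in Eos+ Tregs, 2.04 CPM or more, was above that library too.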

How the results depend on the processing

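A test against a 1.5-fold change called 2, 2 and 1 of the receptors (Eos+ against Eos- Tregs, Eos+ Tregs against Tconv, Eos- Tregs against Tconv), where 7, 6 and 3 were called, and 778, 1854 and 513 of all genes, where 2500, 4655 and 2249 were. DESeq2, which called more unchanged genes than the other tools on simulated counts, called 5 receptors in the last comparison. There, settings other than leaving out libraries called 513 to 3300 of all genes. Leaving out 1 library, or number 1, gave 5 to 7, 5 to 6 and 2 to 4 receptors. Such fits called 1910 to 2936, 3882 to 4947 and 1574 to 2884 of all genes. With the replicate block, which follows the pairing of the numbers, the counts were 8, 6 and 4. It called 3498 and 5571 of all genes in the first and second comparisons. In the third it was among the settings that called 513 to 3300 of all genes. The block changed the calls given beside Il12rb2 and Il17re and no other receptor's call. Over all alternatives, 565 of 629 receptor changes kept direction and side of the threshold, 44 lost the call and 9 gained it. The 11 reversals were all of changes that had not passed, upon leaving out libraries: Il6ra (-0.17 to 0.15), Il6st (-0.14 to 0.13), Il27ra (-0.074 to 0.0053) and Il17re (-0.0095 to 1.24) for Eos+ Tregs against Tconv, and Il10ra (-0.19 to 0.45) for Eos- Tregs against Tconv. Without number 1, Il6st was 0.095 and Il17re -0.25. Counts over the 7 pathway lists moved by over 1.5 times in 37 of 441 cases; the 1.5-fold test took the Janus kinase and STAT count from 3, 7 and 8 to 0, 4 and 1 and the interferon-gamma response count between the Treg populations from 10 to 2. The cause of these shifts was not tested, apart from the stricter threshold of the 1.5-fold test. Transcripts of a few CPM, such as Il23r, Il12rb2 and Il17re, rested on 30 to 505 counts in some groups.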
